A study of Mus musculus with 12 samples.

Results

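The genes described here are 8 genes of the red cell lineage: the adult beta globins Hbb-bs and Hbb-bt, the adult alpha globins Hba-a1 and Hba-a2, Alas2, Slc4a1, Klf1 and Epor. They were chosen by name from the deposited tables, and each of the 8 was found, among 53801 genes in the count table. All 12 libraries were read. The libraries hold total RNA sequenced from the colon and the blood of wild-type C57BL/6 male mice that were 8 weeks old when obtained. By their labels, the UC libraries came from mice with acute ulcerative colitis (UC), induced with 1.5% dextran sulfate sodium (DSS) in the drinking water for 7 days, and the control libraries from time-matched mice on the same water without DSS. All mice were killed on day 8. DSS is a sulfated sugar polymer that injures the lining of the gut, so the model gives an acute chemical colitis and not the chronic human disease. In each tissue 3 libraries carried the UC label (mice 1, 2 and 4) and 3 the control label (mice 7, 8 and 9), and the study picked these 6 mice by their disease activity score. Globin RNA was removed from the blood libraries along with ribosomal RNA, while only ribosomal RNA was removed from the colon libraries. Levels of the globins are therefore read within a tissue and are not compared between blood and colon.

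Red cells carry oxygen on haemoglobin, a protein of alpha and beta globin chains that each hold a haem group. Their precursors mature in the bone marrow and spleen under erythropoietin, whose receptor is encoded by Epor, and under transcription factors that include KLF1, which binds CACCC motifs in the beta globin promoter. ALAS2 catalyses the first step of haem synthesis in this lineage, and SLC4A1 (band 3) is the anion exchanger of the red cell membrane. The youngest red cells in the circulation, reticulocytes, have lost their nucleus but still hold RNA made earlier, so red cell RNA in blood is mostly reticulocyte RNA. In a piece of colon, such RNA can come from blood in its vessels or from blood shed into the tissue.

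The beta globin genes lie on chromosome 7 and the alpha globin genes on chromosome 11, and the sequences of each pair are shown because they limit how reads can be divided between copies. In GRCm38, Hbb-bs lies at chr7:103826534-103828096 and Hbb-bt at chr7:103812524-103813996, both on the minus strand. The GENCODE coding sequences of this pair are 444 bases each and differ at 1 base, C417T, counted from the A of the start codon, with the base of Hbb-bs first. Hba-a1 lies at chr11:32283511-32284465 and Hba-a2 at chr11:32296489-32297298, both on the plus strand. Their coding sequences are 429 bases each and differ at 1 base, C381T, with the base of Hba-a1 first. The end of the coding sequence of the beta pair (coding bases 387 to 444, chr7:103826665-103826722 and chr7:103812656-103812713) and a stretch of exon 3 of the alpha pair (coding bases 351 to 408, chr11:32284313-32284370 and chr11:32297130-32297187) follow, in transcript direction with the differing base in capitals.
Hbb-bs: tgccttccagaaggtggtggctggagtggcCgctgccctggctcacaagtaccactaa
Hbb-bt: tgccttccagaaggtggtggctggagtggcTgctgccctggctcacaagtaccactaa
Hba-a1: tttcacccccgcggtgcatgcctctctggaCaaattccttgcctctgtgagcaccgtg
Hba-a2: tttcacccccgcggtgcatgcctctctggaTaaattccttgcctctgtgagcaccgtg
Of the 100-base stretches of the main Hbb-bs transcript, 62.6% occur letter for letter in that of Hbb-bt, and 56.5% of those of Hba-a1 occur in Hba-a2. Reads from such stretches cannot be assigned to either copy by sequence, so the division of counts within each pair is uncertain and their sum is firmer.

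The promoters are shown for their motif words, and any link of these words to the levels or the labels was not tested. RefSeq windows on GRCm38.p6 were found for 7 of the 8 genes, and the 120 bases before the start site were searched on both strands for the word CACCC, the word CCAAT, the word TATAA and the GATA words AGATAA or AGATAG or TGATAA or TGATAG. Matches stand in capitals, also where the match is the reverse complement.
Hbb-bs (chr7:103827929-103828048, minus strand): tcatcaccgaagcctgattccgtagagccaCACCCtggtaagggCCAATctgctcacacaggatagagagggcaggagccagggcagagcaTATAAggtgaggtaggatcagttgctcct
Hbb-bt (chr7:103813924-103814043, minus strand): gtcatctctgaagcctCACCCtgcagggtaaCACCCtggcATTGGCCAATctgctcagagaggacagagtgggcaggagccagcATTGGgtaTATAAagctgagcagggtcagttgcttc
Hba-a1 (chr11:32283552-32283671, plus strand): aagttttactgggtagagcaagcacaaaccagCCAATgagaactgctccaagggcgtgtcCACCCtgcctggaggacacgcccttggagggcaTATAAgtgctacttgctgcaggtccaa
Alas2 (chrX:150547297-150547416, plus strand): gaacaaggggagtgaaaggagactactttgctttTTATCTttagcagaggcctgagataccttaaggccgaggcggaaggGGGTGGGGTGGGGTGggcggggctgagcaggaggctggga
Klf1 (chr8:84901862-84901981, plus strand): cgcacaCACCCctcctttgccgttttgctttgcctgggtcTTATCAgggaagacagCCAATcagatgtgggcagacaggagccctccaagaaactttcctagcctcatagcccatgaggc
Epor (chr9:21963577-21963696, minus strand): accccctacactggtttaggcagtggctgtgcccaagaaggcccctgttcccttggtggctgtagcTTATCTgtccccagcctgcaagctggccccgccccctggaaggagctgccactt
The 4 globin promoters each held the word CACCC, the word CCAAT and the word TATAA and none of the GATA words. All 3 motifs together occur in 0.688% of the 32851 RefSeq windows of the same length, CACCC alone in 31.7%, CCAAT in 21.3% and TATAA in 11.8%. A GATA word stood before Alas2, Klf1 and Epor and stands in 12.8% of windows. The whole RefSeq window of Hba-a2, 300 bases around its start site, is that of Hba-a1 moved by 3 bases, with all 297 overlapping bases identical. A match is a word in these letters and not a measured binding site.

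The remaining members lie apart. In GRCm38, Alas2 lies at chrX:150547375-150570638 on the plus strand, Slc4a1 at chr11:102348824-102366203 on the minus strand, Klf1 at chr8:84901928-84905291 on the plus strand and Epor at chr9:21958897-21963506 on the minus strand. Alas2 shares 311 exon bases with Apex2 and 61 with Mir3620 on the opposite strand. No strand setting was given for the counting, so reads there may not have been told apart. Apex2 had 190 to 455 normalized counts in the blood and 631 to 856 in the colon.

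Total counts per library were 80867247 to 142536804 for blood and 69181049 to 103662306 for colon, and the 7SL RNA genes took 35.9% to 65.4% of them in blood. Tissue labels were read from the tissue field, since another label field names the opposite tissue for every sample. The gut marker list followed that field, with a summed normalized count of 77.9 to 319 in the blood and 848736 to 1955850 in the colon. The disease labels were less well matched by the inflammation marker list. Its colon sum was 22271, 271 and 183 among the UC-labelled libraries (mice 1, 2 and 4) and 10290, 366 and 84708 among the control-labelled ones (mice 7, 8 and 9). Its blood sum was 370184, 44315 and 44346 among the UC-labelled libraries and 146188, 35184 and 320668 among the control-labelled ones. Mice 1, 7 and 9 were thus the 3 highest in both tissues, which divides both labelled groups, and the normalized tables list mice 1, 7 and 9 first and then mice 2, 4 and 8. The groups used here are those of the labels, and every comparison of labels below rests on labels that these genes do not follow.

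Alas2 was the main red cell transcript left in blood after globin removal. It took 3.40% to 7.70% of all counts of a blood library (5.07% ± 1.52, SD, n = 6), and ranked 1 or 2 among all genes of the normalized table. The counting error of a share was at most ± 0.00543 percentage points (Wilson 95% interval), far below the spread between mice, and such intervals cover counting error only. The 4 globins together took 0.188% to 1.08% of all counts. Normalized counts of Alas2 were 7241870, 7132900 and 3828110 among the UC-labelled blood libraries and 4361240, 6709710 and 5881820 among the control-labelled ones. On these normalized counts the lowest and the highest library both carried the UC label, so the groups overlapped. As a share of all counts the highest library was mouse 9, labelled control.

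Hbb-bs was the most abundant globin left in the blood. Its normalized counts were 649553, 546208 and 155186 in mice 1, 2 and 4 and 281565, 263155 and 613818 in mice 7, 8 and 9. Those of Hbb-bt, the neighbouring beta globin, were 98607, 99349 and 33095 among the UC-labelled libraries and 56924, 59308 and 143241 among the control-labelled ones. Mouse 4 was lowest for both beta globins and mouse 9 was highest for Hbb-bt. The alpha globin Hba-a1 had 39834, 42322 and 11766 normalized counts under the UC label and 15523, 20551 and 36988 under the control label. Hba-a2 had 38772, 41321 and 11177 under the UC label and 14943, 19440 and 34809 under the control label. Mouse 4 was again lowest and mouse 2 highest. The 2 alpha genes kept nearly the same pattern, with a root mean square difference of 0.020 on the log2 scale over the 6 libraries. Reads from stretches that the copies share cannot be assigned to either, so this likeness does not show that the 2 genes vary together.

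Slc4a1 varied most between blood libraries among the 8 genes. Its normalized counts were 402160, 178987 and 53572 among the UC-labelled libraries and 114970, 117359 and 158841 among the control-labelled ones, a 7.51-fold range. Both extremes, mouse 1 and mouse 4, carried the UC label. Klf1, the erythroid transcription factor, had 115, 161 and 51.5 normalized counts under the UC label and 74.3, 113 and 67.0 under the control label. Epor, the erythropoietin receptor, had 298, 241 and 222 under the UC label and 249, 290 and 152 under the control label. Klf1 and Epor, which act in nucleated precursors, stood on 63 to 325 counts per blood library, against 4678666 to 7108744 for Alas2.

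Per kilobase of exon, mean normalized counts in the blood fell from Alas2 (2438320) to Hbb-bs (544593), Hbb-bt (116293), Hba-a2 (40095), Slc4a1 (34958), Hba-a1 (34274), Epor (122) and Klf1 (63.3). The means of Hba-a2, Slc4a1 and Hba-a1 were close beside the standard deviation between libraries, 48.2% to 70.9% of the mean for these 3 genes. Within each blood library Hba-a2 over Hba-a1 per kilobase was 1.15 to 1.19, though the division of reads between these copies is uncertain. The place of the globins in this order is that left after their removal. In the colon, where globins were not targeted, the order per kilobase was Hbb-bs (9860), Hbb-bt (3804), Hba-a2 (3269), Hba-a1 (3248), Alas2 (1061), Slc4a1 (15.4), Klf1 (7.32) and Epor (6.64). Neither the neighbours from Hbb-bt to Hba-a1 nor Klf1 and Epor differed there beyond their spread.

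**Figure D1:**
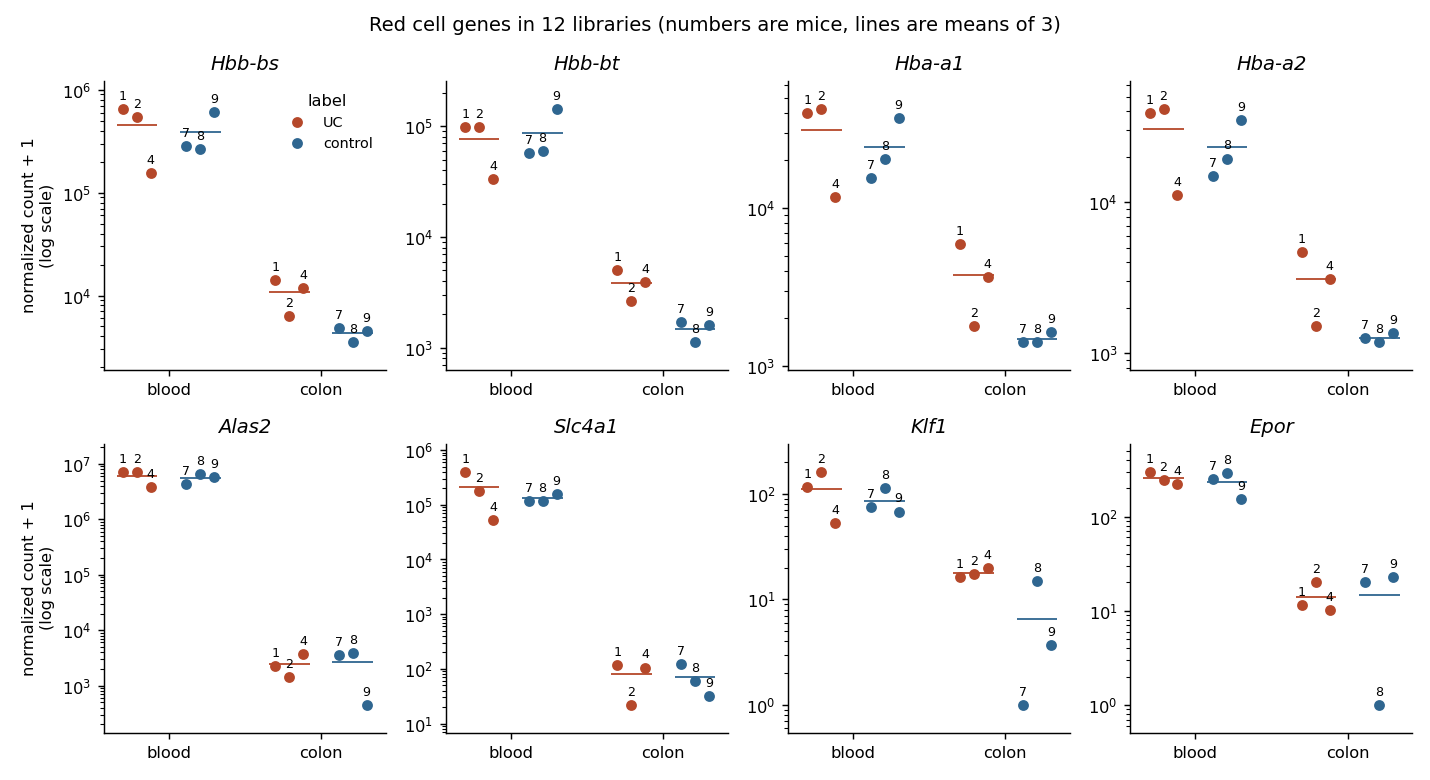
Authors' normalized count plus 1 (log axis) of each gene in each blood and colon library, with points numbered by mouse, coloured by label, and lines for the mean of 3 libraries. In the colon the 3 libraries labelled UC lie above the 3 labelled control for each globin, while in the blood the groups overlap for all 8 genes. The 2 tissues were normalized separately and globin RNA was removed from the blood only, so heights are read within a tissue.

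In the colon, all 4 adult globins were higher in each library labelled UC than in each labelled control, by 2.44-fold to 2.63-fold in the group means, but none passed the test across all genes. Hbb-bs had 14297, 6301 and 11931 normalized counts in mice 1, 2 and 4 and 4876, 3515 and 4515 in mice 7, 8 and 9. The lowest library labelled UC, mouse 2, still stood above the highest labelled control, mouse 7. Hbb-bt had 5065, 2653 and 3908 under the UC label and 1703, 1118 and 1597 under the control label, with the same lowest library in each group as Hbb-bs. Hba-a1 had 5917, 1786 and 3652 under the UC label and 1415, 1414 and 1642 under the control label. Hba-a2 had 4664, 1507 and 3115 under the UC label and 1256, 1182 and 1361 under the control label. For both alpha globins mouse 2 lay just above the control range, and mice 1 and 4 well above it.

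The question asked of these values was whether the label for DSS colitis went with the level of red cell RNA in the tissue. In edgeR, the log2 fold change (log2FC) of labelled UC over labelled control in the colon was 1.38 (SE 0.289) for Hbb-bt with an unadjusted p of 0.00245, and 1.32 (SE 0.322) for Hbb-bs with an unadjusted p of 0.00537. It was 1.33 (SE 0.412) for Hba-a1 and 1.27 (SE 0.391) for Hba-a2, with unadjusted p of 0.0161 and 0.0154. After Benjamini-Hochberg adjustment over 22238 genes all 4 had an edgeR adjusted p of 1.00. A gene was called where the adjusted p was at most 0.05 and the absolute log2FC above 1, and 0 of the 8 genes were called in the colon, where 0.0045% of all tested genes were called by edgeR and 0.027% by DESeq2. DESeq2 also called 0 of the 8, with its lowest adjusted p, 0.0970, for Hbb-bt, whose adjusted p ran from 0.0970 to 1 over all alternatives. An unadjusted edgeR p under 0.05 with a higher level under the UC label was met by 4 of the 8 genes, against 0.67% of all tested genes. The labels separated 5 of the 8 genes without overlap in the colon, all higher under the UC label, against 3.51% of genes higher and 2.15% lower among all tested. The 4 globins are not independent of each other, since the copies share sequence and their RNA comes from the same cells.

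Leaving out each mouse in turn kept the colon log2FC of the globins between 0.85 and 1.67, with the lowest values, for the alpha globins, without mouse 1. Total counts also separated the labelled groups in the colon, with 93226549 to 103662306 under the UC label and 69181049 to 86450786 under the control label, as did the share of 7SL RNA, with 4.90% to 4.92% against 5.27% to 6.50%. Library depth and label cannot be told apart here. Scaling to library size alone gave log2FC of 1.28 to 1.38 for the 4 globins. Marker sums of other blood cells and of vessels overlapped between the labels: 2429 to 3085 against 1975 to 4622 for platelets, 181 to 12877 against 358 to 41488 for 7 neutrophil markers, and 5376 to 6863 against 5220 to 10238 for endothelium. The other neutrophil marker, Ly6g, is left out of this sum because it alone had 7350 to 25479 normalized counts in the colon and at most 2680 in the blood. Most of the platelet sum came from Itgb3, with 1306 to 3673 normalized counts. Its mean CPM in the colon was 7.51% of that in the blood, against at most 2.76% for the other platelet markers. In every colon library 4 of the 8 platelet markers had under 100 normalized counts, so this sum need not follow platelets. More red cells in the tissue and more globin RNA per red cell cannot be told apart in bulk RNA.

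Alas2, Slc4a1 and Epor overlapped between the labels in the colon. Alas2 had 2224, 1419 and 3790 normalized counts among the UC-labelled libraries and 3591, 3820 and 447 among the control-labelled ones, with a log2FC of -0.11 (SE 0.767). The lowest and the highest colon library for Alas2, mice 9 and 8, both carried the control label. Slc4a1 had 116, 20.9 and 105 normalized counts under the UC label and 120, 59.2 and 30.6 under the control label, with a log2FC of 0.18 (SE 0.769). Klf1 had 15.2, 16.5 and 19.0 under the UC label and 0, 13.9 and 2.70 under the control label, which do not overlap but rest on 0 to 23 counts per library, and its log2FC was 1.59 (SE 1.08), or 3.43 (SE 1.12) without mouse 8, with an unadjusted edgeR p of 0.0238 and an adjusted p of 0.561. Epor had 10.4, 19.2 and 9.07 under the UC label and 19.0, 0 and 21.6 under the control label, with 0 to 24 counts and a log2FC of -0.08 (SE 1.11). Under edgeR these 4 had unadjusted p of 0.187 to 0.941. A count of 0 in mouse 7 for Klf1 allows up to 0.0434 CPM (counts scaled to library size), and one in mouse 8 for Epor up to 0.0405 CPM, from 3 counts per library.

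**Figure D2:**
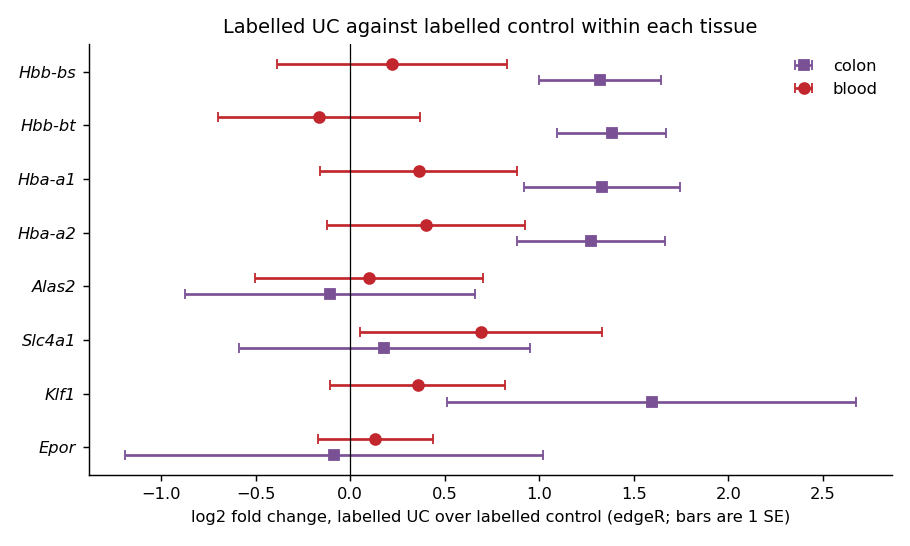
The log2 fold change of labelled UC over labelled control for each gene (x axis, edgeR), with squares for colon, circles for blood and bars of 1 SE. The 4 globins lie between 1.27 and 1.38 in the colon, whereas the 8 blood values run from -0.17 to 0.69. Blood values of the globins are of what removal left in each library.

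In the blood, none of the 8 genes passed the test between the labels. The log2FC was 0.22 (SE 0.608) for Hbb-bs, -0.17 (SE 0.534) for Hbb-bt, 0.36 (SE 0.521) for Hba-a1 and 0.40 (SE 0.523) for Hba-a2. It was 0.10 (SE 0.601) for Alas2, 0.69 (SE 0.641) for Slc4a1, 0.36 (SE 0.463) for Klf1 and 0.13 (SE 0.306) for Epor. Blood values of the globins are of what removal left, and how evenly it acted across libraries was not tested. The lowest unadjusted edgeR p was 0.312, for Slc4a1, and the standard errors do not exclude changes of either sign. The sign depends on the scaling, since library size scaling moved the median of all genes from 0.04 to -0.27 and turned the log2FC of Hbb-bs, Hba-a1, Hba-a2, Alas2 and Epor negative. Of the 8, 0 were called, where 0% of tested genes were called by edgeR, in which 241 genes had an unadjusted p under 0.05, and 0.0358% by DESeq2, which also called 0 of the 8. The labelled groups overlapped for all 8, against 3.08% of genes that did not overlap with UC higher and 3.43% with UC lower. Mouse 4 was the lowest library for 7 of the 8. Without it, the groups no longer overlapped on the normalized counts for 5 of the 8 (Hba-a1, Hba-a2, Alas2, Slc4a1 and Klf1). UC was higher there, against 8.42% of all tested genes, of which mouse 4 was the lowest library for 15.1%. Mouse 4 was dropped because it was lowest for most of the 8, which by itself raises the lowest UC value. This separation is thus no test of the label. On CPM of all counts these 5 still overlapped without mouse 4. For Alas2, mice 1 and 2 had 48248 and 58602 CPM and mouse 9, labelled control, had 76987. The log2FC of Slc4a1 without mouse 4 was 1.15 (SE 0.413), with an unadjusted edgeR p of 0.0272 and an adjusted p of 0.980.

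The effect of the label was compared between tissues as an interaction. For the 4 members that are no globins, the log2FC in the blood minus that in the colon was 0.21 (SE 0.999) for Alas2, 0.52 (SE 1.07) for Slc4a1, -1.23 (SE 1.11) for Klf1 and 0.25 (SE 1.05) for Epor. None of the 4 was called by edgeR, against 0.0043% of tested genes. For the globins the differences were -1.10 (SE 0.761) for Hbb-bs, -1.55 (SE 0.681) for Hbb-bt, -0.97 (SE 0.738) for Hba-a1 and -0.88 (SE 0.727) for Hba-a2, which stand as values only because the blood libraries were depleted of these RNAs.

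The balance of globin chains differed less between libraries than the levels did. In the colon, adult beta over adult alpha counts was 2.20 ± 0.373 (SD, n = 6), with 1.83, 2.72 and 2.34 under the UC label and 2.46, 1.78 and 2.04 under the control label. The globin levels themselves spread 3.94-fold to 4.53-fold over the same libraries, so beta and alpha levels varied together. In the blood after globin removal the ratio was 9.19 ± 1.42 (SD, n = 6), from 7.72 to 11.1. Hbb-bt made 26.1% ± 1.92 (SD, n = 6) of adult beta counts in the colon and 16.7% ± 2.13 (SD, n = 6) of those in the blood. The blood share was 13.2%, 15.4% and 17.6% under the UC label and 16.8%, 18.4% and 18.9% under the control label, which overlap. The removal step acted in the blood only and need not take each chain equally, so these ratios are given side by side and not compared.

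Globins and Alas2 did not keep a fixed ratio in the colon. Counts per kilobase of the 4 globins over those of Alas2 were 43.3, 27.8 and 19.2 among the UC-labelled libraries and 8.30, 6.09 and 65.6 among the control-labelled ones. The lowest value, in mouse 8, and the highest, in mouse 9, were both under the control label. In the blood the ratio ran from 0.172 to 0.450 after removal. Slc4a1 per 1000 of Alas2, on the same scale, was 7.24 to 33.6 in the colon against 6.88 to 27.3 in the blood, so the colon and blood ranges of this ratio, which no depletion step targeted, overlapped.

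**Figure D3:**
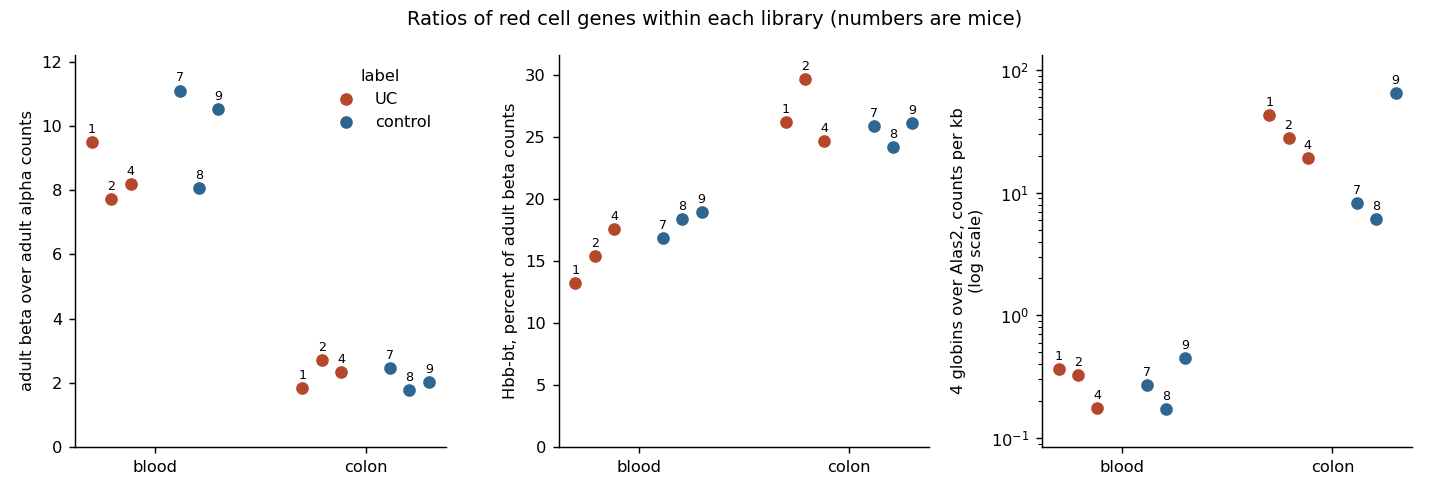
Adult beta over adult alpha globin counts, Hbb-bt as a percent of adult beta counts, and the 4 globins over Alas2 per kilobase (log axis), with points for libraries numbered by mouse and coloured by label. Within the colon the beta over alpha ratio stays between 1.78 and 2.72, while the globins over Alas2 run from 6.09 to 65.6.

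Blood and colon were compared for the 4 members that globin removal did not target. Alas2 was higher in the blood with a log2FC of 12.87 (SE 0.811, edgeR adjusted p = 2.2e-07), and Slc4a1 with 12.82 (SE 0.853, adjusted p = 2.99e-07). Klf1 was higher with a log2FC of 5.00 (SE 0.636, edgeR adjusted p = 3.64e-05) and Epor with 5.87 (SE 0.620, edgeR adjusted p = 8.99e-06). All 4 were called, where 20.8% of the tested genes were called as higher in blood, and each was higher in 6 of 6 mice. The median log2FC of all genes was -0.46, and library size scaling moved it to -2.57, under which Alas2 kept 10.76, Slc4a1 10.70, Klf1 2.86 and Epor 3.67. The blood and colon of a mouse carry the same number, and a fit with a replicate block for each mouse still called the 4, with 13.11, 12.87, 5.18 and 6.01.

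On the CPM scale, the mean in the colon was 0.0574% of that in the blood for Alas2 and 0.0603% for Slc4a1. Some red cell genes of the other lists lay close by. These included Epb42, which encodes protein 4.2 of the membrane skeleton, at 0.113% and Kel, the Kell antigen gene, at 0.0936%. Others lay higher, with 1.69% for Sptb, 1.86% for Epb41, 1.97% for Ank1 and 1.33% for Fech. Rhag, Gata1 and Trim58 were below 0.06% but were counted in only 1 colon library each. Among the listed red cell genes other than globins, 59 had over 10 CPM in the blood. Of these, 7 stood below 0.1% in the colon, 14 below 1%, and 8 above their blood level. The 8 are on the CPM scale, where 7SL RNA took 35.9% to 65.4% of the blood counts. In the edgeR fit the log2FC of blood over colon was 1.01 (SE 0.140) for Jak2 and 1.67 (SE 0.300) for Foxo3, both called higher in the blood. It was 0.68 (SE 0.227) for Xk, under the threshold of 1. For Abcg2 it was 0.26 (SE 0.207, unadjusted edgeR p of 0.234), which shows no difference. Tmem14c, another of the 8, had -0.33 (SE 0.159). Klf1 and Epor, with under 10 CPM in the blood, stood at 16.0% and 7.77% on the CPM scale.

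**Figure D4:**
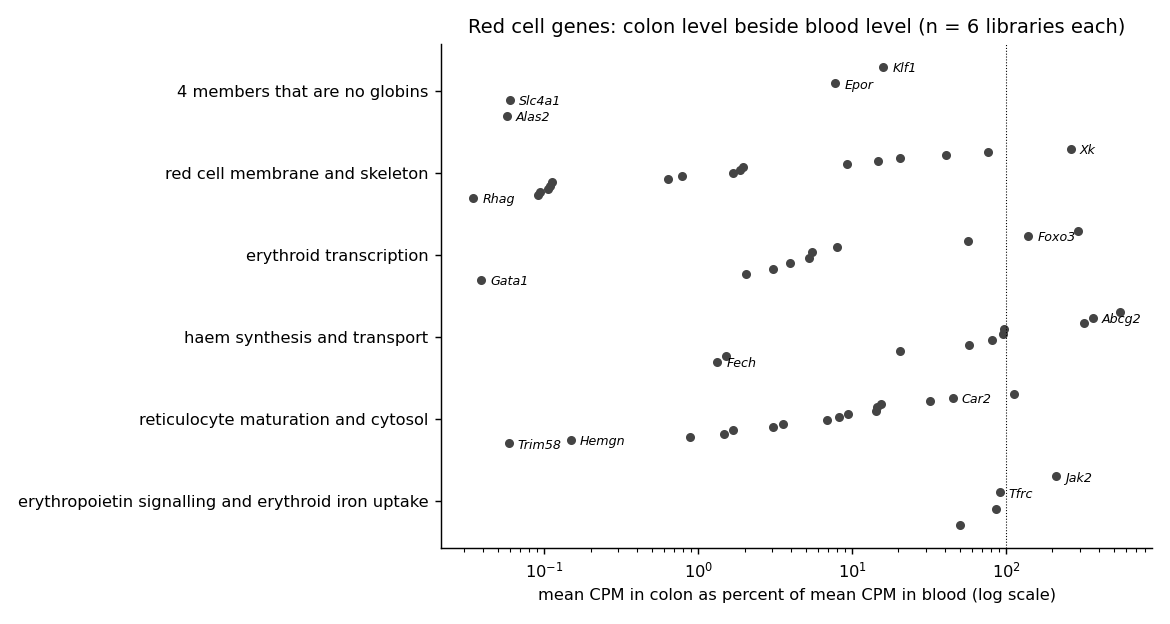
Mean CPM in the colon as a percent of mean CPM in the blood (log axis, n = 6 libraries each) for the 4 members that are no globins and for genes of the red cell lists with over 10 CPM in the blood. Alas2 and Slc4a1 stand near 0.06%, close to some membrane genes, while other membrane genes, such as Sptb at 1.69%, stand higher. On this CPM scale 8 genes, among them Jak2, Abcg2, Foxo3 and Xk, stand above 100%, the dotted line. In the edgeR fit Jak2 and Foxo3 were called higher in the blood, so their direction depends on the scaling. Xk and Abcg2 were not called there.

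The wider red cell programme was read through lists of 85 further genes, of which 79 were tested in the blood and 67 in the colon. Of these, 0 were called in either tissue, and 1 gene in each tissue had an unadjusted edgeR p under 0.05, beside 241 of 16759 genes tested in the blood and 313 of 22238 in the colon. The median log2FC over the 79 genes in the blood was 0.28, with 61 higher and 18 lower under the UC label, beside 0.04 over all genes, and in the colon it was 0.0039 beside -0.0069. The blood split rested on the scaling and on mouse 1. It was 30 higher and 49 lower with library size scaling, and 25 higher and 54 lower without mouse 1. The colon median need not follow red cells. Of 59 listed red cell genes other than globins with over 10 CPM in the blood, 14 stood below 1% of that level in the colon. Between tissues, 63 of 78 tested were called higher in the blood and 8 higher in the colon, beside 20.8% and 37.7% of all tested genes, the shares against which the counts by list are read.

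Among membrane and skeleton genes, 20 were tested in the blood and 18 of 20 were called higher in the blood and 1 in the colon, beside 20.8% and 37.7% of all genes. Epb41, which encodes protein 4.1 of the membrane skeleton, had 1617470, 364895 and 131837 normalized counts in the blood under the UC label and 252162, 262603 and 571128 under the control label. Mouse 1 was highest and mouse 4 lowest for this gene. Haem synthesis and transport genes were called higher in the blood for 11 of 16 and in the colon for 1, beside the same shares of 20.8% and 37.7%. Slc25a37 (mitoferrin, which brings iron into mitochondria) ran from 110240 in mouse 4 to 841958 in mouse 1, and Fech, the enzyme that inserts iron into the haem ring, from 204331 to 685925 in the same mice.

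Genes of reticulocyte maturation and the red cell cytosol were called higher in the blood for 16 of 19 and in the colon for 2, beside 20.8% and 37.7% of all genes. Bnip3l, which takes part in the removal of mitochondria, ran from 441174 normalized counts in mouse 4 to 934254 in mouse 9, and Bpgm, the enzyme that makes the oxygen affinity regulator of red cells, from 194628 in mouse 4 to 692090 in mouse 1. Erythroid transcription genes were called higher in the blood for 10 of 12 and in the colon for 1, led per kilobase by E2f2 and Lmo2, with 16972 to 123136 and 10692 to 27248 normalized counts. Erythropoietin signalling and iron uptake genes were called higher in the blood for 6 of 9 and in the colon for 3, the second a share near the 37.7% of all genes. Tfrc, the transferrin receptor, had 15990 to 33372 normalized counts in the blood and 7075 to 32897 in the colon, and Pim1, a kinase gene induced by cytokines, had 3977 to 11048 and 885 to 4883. Of the 7 minor and embryonic globins, Hbq1a and Hbq1b were counted, with 763 to 1424 and 421 to 842 normalized counts in the blood, and the other 5 had no count in any library, which allows up to 0.0434 CPM in the shallowest.

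A shared order of the blood libraries stood out across these lists. Mouse 1 was the highest library for 54 of the 79 list genes (68.4%) and mouse 4 the lowest for 47 (59.5%), beside 30.2% and 15.1% of the 16727 table genes tested. Both carried the UC label, so this order does not separate the labelled groups. The list genes were ranked on the normalized counts only, and the highest library depends on the scaling. On CPM of all counts, mouse 9, labelled control, was highest for the 4 globins and Alas2, with 8034 for Hbb-bs against 4328 in mouse 1. Mouse 4 was lowest for these genes on that scale too. Of the membrane and skeleton genes, 16 of 20 were highest in mouse 1, and of the reticulocyte genes 16 of 19 were lowest in mouse 4. Marker sums of other blood cells also moved in these libraries. Lymphocyte markers were lowest in mouse 1 (16514) and highest in mouse 4 (34646), neutrophil markers were highest in mouse 1 (482665), and platelet markers were highest in mouse 1 (320516) and lowest in mouse 4 (226439). Their part in the order of the red cell genes was not tested. In the colon no such order was seen, with mouse 1 highest for 11 of 67 list genes and mouse 4 lowest for 10. Many of these genes need not follow red cells there.

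**Figure D5:**
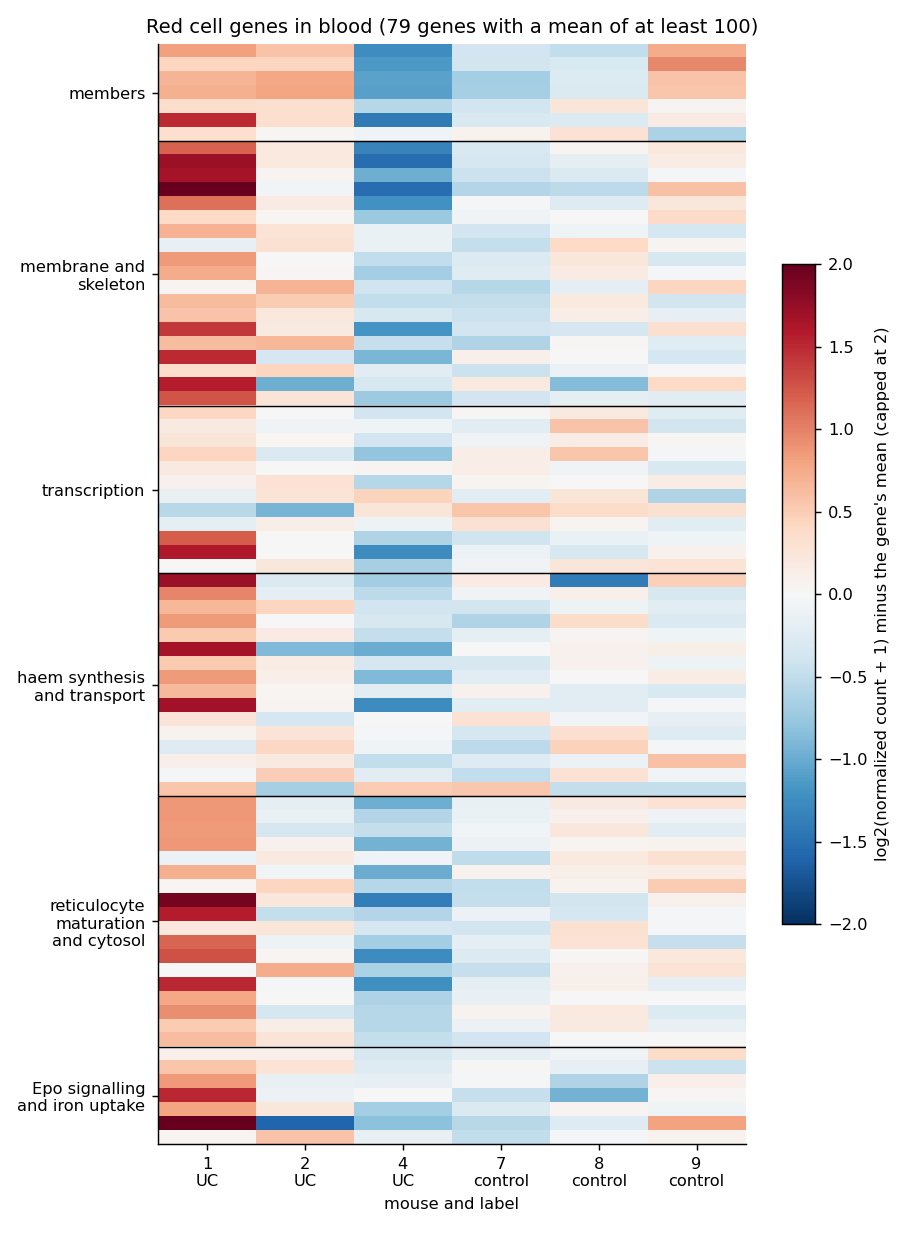
Blood libraries (columns, by mouse and label) against red cell genes, members included, with a mean of at least 100 normalized counts (79 genes, grouped by list), coloured by log2(normalized count + 1) minus the gene's mean. The column of mouse 1 is mostly red (above the mean) and that of mouse 4 mostly blue (below it), though both are labelled UC.

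Genes with the most similar pattern over the 6 libraries were found by the root mean square difference of centred log2(normalized count + 1), among 11105 genes in the blood and 15842 in the colon with a mean of at least 100. In the blood, the nearest to Slc4a1 were Sptb (0.12), which encodes beta spectrin, Ranbp10 (0.14) and Tmod1 (0.14), which encodes tropomodulin of the membrane skeleton. Those nearest to Alas2 were Fam220a (0.028), Tmcc2 (0.072) and Acmsd (0.073), and those nearest to Hbb-bs were Kdm7a (0.16), Ccni (0.19) and Adarb1 (0.21). Klf1 was nearest to Cenpv (0.16), Nadk2 (0.19) and Ywhah (0.20), and Epor to Haus4 (0.064), Haghl (0.079) and Mxd3 (0.080). Slc4a1 thus had red cell skeleton genes beside it, on a pattern whose own root mean square was 0.87. With 6 libraries, small distances also arise among many genes of low spread, such as Epor at 0.32.

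In the colon distances were larger. The nearest to Hbb-bs outside the globins were March8 (0.35), Dynll1 (0.37) and Wars2 (0.37), whereas Hbb-bt lay at 0.13 and Hba-a2 at 0.18. Alas2 lay at 1.21 from Hbb-bs and had Cyp3a13 (0.23), Me3 (0.26) and Espn (0.32) as its nearest genes. Slc4a1 was nearest to Lrp11 (0.25), Sowaha (0.37) and Cyp4f14 (0.38). For Klf1 these were Spag17 (0.38), Gm12992 (0.39) and A430035B10Rik (0.57), and for Epor they included Pcdh15 (0.54) and Fam110b (0.68), on few counts.

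Genes that clear haemoglobin and haem were led in the colon per kilobase by Hp, which encodes haptoglobin, the plasma carrier of free haemoglobin, and Slc40a1, which encodes the iron exporter ferroportin. Hp had 14627, 36.6 and 24.7 normalized counts in the colon under the UC label and 1607, 68.1 and 11116 under the control label, with mice 1, 7 and 9 highest, as for the inflammation markers. Slc40a1 had 21537, 19439 and 40237 under the UC label and 7795, 35129 and 15008 under the control label, which overlap. Of the 8 genes of this list tested in the colon, 0 were called, 3 were higher and 5 lower under the UC label, with a median log2FC of -0.10.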

How the data were processed

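Colon RNA and blood RNA came from the same 6 mice. Ribosomal RNA was removed from all libraries, and globin RNA from the blood only, before paired-end Illumina sequencing. The authors aligned reads with STAR to GRCm38 and made gene counts with StringTie 1.3.4c and the Ensembl annotation, with no strand setting given. The deposited counts are whole numbers per gene, and the deposited normalized counts, treated here as a signal, are these counts divided by 1 factor per library, computed by the authors with DESeq2 within each tissue.

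Here, counts were fitted in R 4.3.3 with edgeR 4.0.16 (quasi-likelihood test, TMM scaling, filterByExpr, Benjamini-Hochberg adjustment over all genes tested). The labels were compared within each tissue, and tissue and interaction contrasts were fitted over all 12 libraries. The SE is the absolute log2FC divided by the square root of F. DESeq2 1.42.0, other scalings, filters and gene sets, each mouse left out in turn, and the mouse as a replicate block were alternatives. The models were tested on simulated counts with 4-fold changes and a dispersion (spread between replicates) of 0.05, where 94.5% to 100% of the changes were recovered. That spread is below the one fitted to these data, so the recovery does not carry over to them. Replicates are separate mice, and no 2 libraries agreed within sampling noise. Mouse numbers pair blood and colon because both came from the same animal, while deviations of the same number correlated with r from 0.0187 to 0.245 across genes. For 2 of 6 mice the best matching blood library was the one of the same number, so the values do not show this pairing clearly. Groups labelled UC and control share no mouse number.

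The genes, lists and tests were chosen with earlier results of these data known. Named genes were the 8 members, the 3 nearest genes in pattern for 5 of them in each tissue, and the 2 most abundant per kilobase of each red cell list. Some genes that this rule names are not reported here. Other list genes named in the comparison of colon with blood were picked with their values in view. Of the 85 list genes, 1 was not matched by symbol. Exon lengths and coding sequences came from GENCODE vM21 and promoters from RefSeq.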

Additional observations from a re-analysis of the deposited data

How the results depend on the processing

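Between the labels, 0 of the 8 genes were called in either tissue, and of the 4 that are no globins, 4 were called between tissues and 0 for the interaction, under every alternative run. With library size scaling, the blood log2FC became -0.30 for Hbb-bs, -0.10 for Hba-a1, -0.065 for Hba-a2, -0.21 for Alas2 and -0.094 for Epor, and the interaction became -0.20 for Alas2 and -0.0065 for Slc4a1. With the replicate block, the interaction of Alas2 became -0.13 and no other sign or call changed. Leaving out each mouse in turn gave colon ranges of -0.61 to 0.28 for Alas2, -0.19 to 0.82 for Slc4a1, 1.02 to 3.43 for Klf1 and -0.65 to 0.41 for Epor. In the blood the ranges were -0.13 to 0.72 for Hbb-bs, -0.39 to 0.40 for Hbb-bt, 0.082 to 0.79 for Hba-a1, 0.11 to 0.82 for Hba-a2, -0.057 to 0.34 for Alas2, -0.16 to 1.15 for Slc4a1, -0.034 to 0.70 for Klf1 and -0.092 to 0.34 for Epor. For the interaction they were -0.24 to 0.89 for Alas2, -0.20 to 1.21 for Slc4a1, -2.75 to -0.75 for Klf1 and -0.48 to 0.97 for Epor. The number of the 8 whose blood groups did not overlap on the normalized counts ran from 0 to 5, with 5 without mouse 4. On CPM of all counts those 5 overlapped without mouse 4. Alas2 took 11.9% of counts when only genes of the normalized table were the denominator, and 15 of 30 nearest genes were kept with a minimum mean of 10. The cause was not tested where the construction of the setting does not show it.

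Over all genes, DESeq2 called 6 in the colon against 1 by edgeR, 6 in the blood against 0, and 20 for the interaction against 1, and the replicate block called 0 for the interaction. Without mouse 1, edgeR called 3 in the blood, and it called 0 in the colon without any 1 mouse. Between tissues, library size scaling called 1757 genes higher in blood and 17887 lower, against 4845 and 8759. Klf1 and Epor in the colon rest on at most 24 counts per library, so their ratios there are imprecise.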
